A study of Arabidopsis thaliana with 24 samples.

Results

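The late embryogenesis abundant (LEA) genes outside the dehydrin family were followed in Arabidopsis thaliana seedlings treated or not with abscisic acid (ABA, a hormone of drought stress and seed maturation). The set was the Arabidopsis LEA family without the dehydrins and without the COR15 genes, picked by gene identifier. It held 41 of the 32833 genes measured, and all 41 were found. By family, 16 members were LEA_4 genes, 6 seed maturation proteins (SMP), 4 LEA_3 genes, 3 each LEA_1, LEA_2 and PvLEA18 genes, 2 each LEA_5 and AtM genes, and 2 were LEA-related.

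LEA proteins are mostly small, very hydrophilic proteins that accumulate when seeds dry and when vegetative tissues lose water, and they are thought to protect membranes and other proteins during dehydration. Many of their genes carry ABA-responsive elements (ABREs), short promoter motifs with the core ACGTG that are bound by bZIP factors such as ABI5 and the ABF proteins. Some members, such as EM1 and EM6, are marker transcripts of the last stage of seed maturation and are normally silent after germination unless ABA is supplied. FyPP3, named in the title of the series, encodes one of the catalytic subunits of PP6, a phosphatase that is known to act on ABI5.

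RNA came from whole seedlings of the Columbia 0 background in 4 genotypes: wild type (WT), the nrp1 nrp2 line, the FyPP3DN line and libraries labelled as the combination of nrp1 nrp2 with FyPP3DN. Each genotype had 3 control libraries without hormone and 3 libraries from seedlings given 5 µM ABA for 24 h. Seedling age before treatment was 5 days by the labels. By the design text it was 6 days, followed by 1 day with or without ABA, for an age of 7 days at harvest. The sources used here name no alleles, no promoter for FyPP3DN and no number of transgenic lines. Nor do they state that replicates came from separate cultures, so every p-value rests on a spread between samples that may be technical.

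Values are FPKM, fragments per kilobase of transcript scaled to the mapped fragments of a library, and depth read from the steps of these values was 16560000 to 29110000 fragments. Of the 24 libraries, 8 were plastid-rich, with 9.61% to 18.8% of their FPKM from plastid-encoded genes, against 0.0252% to 0.0877% in the other 16, and each group held 1 plastid-rich library. It was replicate 1 in 7 groups and replicate 2 in the FyPP3DN controls. FYPP3 was at 55.5 ± 26.4 FPKM (SD, n = 3) in FyPP3DN controls against 15.6 ± 2.82 in WT, but at 13.1 ± 0.384 in the controls labelled as the combination. With ABA it was at 25.6 ± 3.42 FPKM in FyPP3DN against 16.3 ± 0.36 in WT, so the ratio of means to WT was 3.57 without and 1.57 with ABA. The labels do not give the loci of nrp1 and nrp2. Of the DCD-domain genes AT3G27090 and AT5G42050, the first was at 20.03 ± 1.23 FPKM in nrp1 nrp2 controls and 17.8 ± 1.71 in those of the combination against 67.4 ± 1.73 in WT, and the second was not lower, at 57.3 ± 12.9 against 30.9 ± 1.15. Because FYPP3 did not stand above WT in the combination, its libraries are named by their label throughout. Summed leaf and cotyledon markers (5 of 5 detected) were at 29583 to 44920 FPKM across libraries. The 3 FyPP3DN controls (29583 to 35036) lay below the 3 WT controls (37404 to 41020), and the lowest of all 24 was FyPP3DN control replicate 3. Control means were lower in FyPP3DN for the antenna genes CAB1 (12238 against 16961 FPKM), LHB1B1 (1392 against 3043) and LHCA3 (1467 against 1868). The Rubisco genes RBCS1A (14267.6 against 14300.5) and RBCS2B (2596 against 2746) were close to WT. Summed root markers were at 13.8 to 29.1 FPKM, mostly from SCR, while the root hair gene EXPA7 ranged from 0.45 to 7.23 FPKM and was at 4.59 in FyPP3DN control replicate 3 and highest in nrp1 nrp2 ABA replicate 2.

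Among control libraries, FyPP3DN replicate 3 and nrp1 nrp2 replicate 2 stood apart for the LEA genes. FyPP3DN replicate 3 was the highest of the 12 control libraries for 19 of the 27 members that could be tested, and nrp1 nrp2 replicate 2 was among the 2 highest for 15. With ABA, FyPP3DN replicates 1 and 3 were among the 2 highest of 12 libraries for 17 and 19 of 27 members, whereas FyPP3DN replicate 2 was among them for 1. FyPP3DN control replicate 3 was also the lowest library in summed leaf markers and the highest control in EXPA7. Its summed root markers, at 25.5 FPKM, were near those of nrp1 nrp2 control replicate 3 (25.1) and FyPP3DN control replicate 1 (24.8). Among controls, the root markers RHD6, RSL4 and SCR peaked in FyPP3DN, but SHV2 peaked in nrp1 nrp2 (2.06 FPKM, against at most 1.91 in FyPP3DN). The part of these marker levels in the LEA levels was not tested. Counts, medians and the differences nearest to a call that rest on these 2 control libraries are also given without them.

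The 300 bases upstream of the annotated gene start are shown for 4 of the 5 members whose transcripts rose with ABA in all 4 genotypes, and for SAG21, the member that fell in all 4. Sequences are from the RefSeq annotation of TAIR10.1, 5′ to 3′ on the gene's strand, with each ABRE core (ACGTG, or CACGT for the other strand, overlapping matches joined) in capitals. EM6 lies on the minus strand and its window is chr2:16780369-16780668. LEA7 lies on the plus strand (chr1:19619424-19619723), AT3G02480 on the plus strand (chr3:511920-512219), AT3G17520 on the minus strand (chr3:6000448-6000747) and SAG21 on the minus strand (chr4:1047106-1047405). The window of the fifth riser, LEA4-5, overlaps the neighbouring gene and is described without its letters.
EM6: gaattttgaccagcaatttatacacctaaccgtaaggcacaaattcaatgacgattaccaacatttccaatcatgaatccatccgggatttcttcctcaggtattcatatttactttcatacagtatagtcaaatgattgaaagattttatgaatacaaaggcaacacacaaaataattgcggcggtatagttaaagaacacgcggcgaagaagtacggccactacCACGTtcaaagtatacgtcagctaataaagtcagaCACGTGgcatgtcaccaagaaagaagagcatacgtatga
LEA7: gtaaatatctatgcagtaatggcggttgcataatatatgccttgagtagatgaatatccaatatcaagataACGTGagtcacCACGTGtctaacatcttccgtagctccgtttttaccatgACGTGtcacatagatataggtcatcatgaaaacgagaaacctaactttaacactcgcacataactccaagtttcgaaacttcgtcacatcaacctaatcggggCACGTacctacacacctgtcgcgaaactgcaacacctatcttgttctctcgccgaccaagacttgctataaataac
AT3G02480: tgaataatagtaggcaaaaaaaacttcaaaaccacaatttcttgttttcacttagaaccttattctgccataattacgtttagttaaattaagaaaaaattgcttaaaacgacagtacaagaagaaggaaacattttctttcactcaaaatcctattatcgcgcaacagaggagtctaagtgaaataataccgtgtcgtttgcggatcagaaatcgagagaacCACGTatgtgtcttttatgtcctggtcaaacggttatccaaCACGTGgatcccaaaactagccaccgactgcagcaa
AT3G17520: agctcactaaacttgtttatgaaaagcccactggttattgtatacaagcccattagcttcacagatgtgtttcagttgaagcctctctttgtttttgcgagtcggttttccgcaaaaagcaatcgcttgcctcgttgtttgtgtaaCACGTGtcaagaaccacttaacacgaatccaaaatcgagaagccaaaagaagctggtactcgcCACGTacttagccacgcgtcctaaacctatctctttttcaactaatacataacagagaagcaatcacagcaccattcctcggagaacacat
SAG21: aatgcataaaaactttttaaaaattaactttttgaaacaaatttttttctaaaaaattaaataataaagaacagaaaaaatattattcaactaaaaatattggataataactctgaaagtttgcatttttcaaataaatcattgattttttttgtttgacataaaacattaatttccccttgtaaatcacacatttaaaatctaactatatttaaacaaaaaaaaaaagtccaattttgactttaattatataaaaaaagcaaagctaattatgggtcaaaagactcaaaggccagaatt
Counted from the gene start, the matches of EM6 began 74 and 39 bases upstream, those of LEA7 229, 218, 179 and 76, those of AT3G02480 77 and 36, and those of AT3G17520 154 and 91. The window of SAG21 held no ABRE core.

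The members differed by several orders of magnitude in level. Transcripts of 27 of the 41 members reached 1 FPKM in at least 3 libraries, the limit set for testing, and 14 did not. All 3 members of LEA_1 and of LEA_2 and both members of LEA_5 and of the LEA-related pair passed, with 10 of 16 LEA_4, 3 of 4 LEA_3, 2 of 3 PvLEA18, 1 of 2 AtM and 1 of 6 SMP genes. The most abundant were AT2G23120 (82.4 to 323 FPKM across the 24 libraries), AT3G02480 (1.46 to 191), SAG21 (51.0 to 193), DI21 (60.6 to 163) and AT2G44060 (78.7 to 134). LEA14 followed at 23.4 to 94.0 FPKM. Some members passed the limit only through libraries in which they were high. ECP63, AT3G53040, AT4G36600, AT5G44310 and M17 reached 1 FPKM in fewer than 3 libraries outside FyPP3DN, and 13 members did so in fewer than 3 control libraries. The main counts and medians are therefore also given over the others, 22 members for FyPP3DN against WT and 14 for the ABA responses. Counts under alternative fits and for other comparisons are over all members tested unless stated.

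Of the 14 members that were not tested, 10 stayed below 1 FPKM in all 24 libraries. AT2G03740 and AT2G33690, both LEA_4, and AT5G53270, an SMP gene, were listed at 0 in every library. AT5G53260 reached 0.07 FPKM, which was 1.02 fragments in 1 library, AT3G53770 0.12, ATECP31 0.19, AT5G27980 0.46, AT2G03850 0.5, M10 0.65 and AT2G18340 0.89 FPKM. The remaining 4 passed 1 FPKM in 1 or 2 libraries. AT3G22490 (SMP) peaked at 3.23, AT1G72100 (LEA_4) at 2.75 and AT2G23110 (PvLEA18) at 1.59 FPKM, all in FyPP3DN seedlings with ABA, and AT4G13230 at 1.08 FPKM in a WT control. By family, the 14 were 6 LEA_4, 5 SMP, 1 LEA_3, 1 AtM and 1 PvLEA18 gene.

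**Figure D1:**
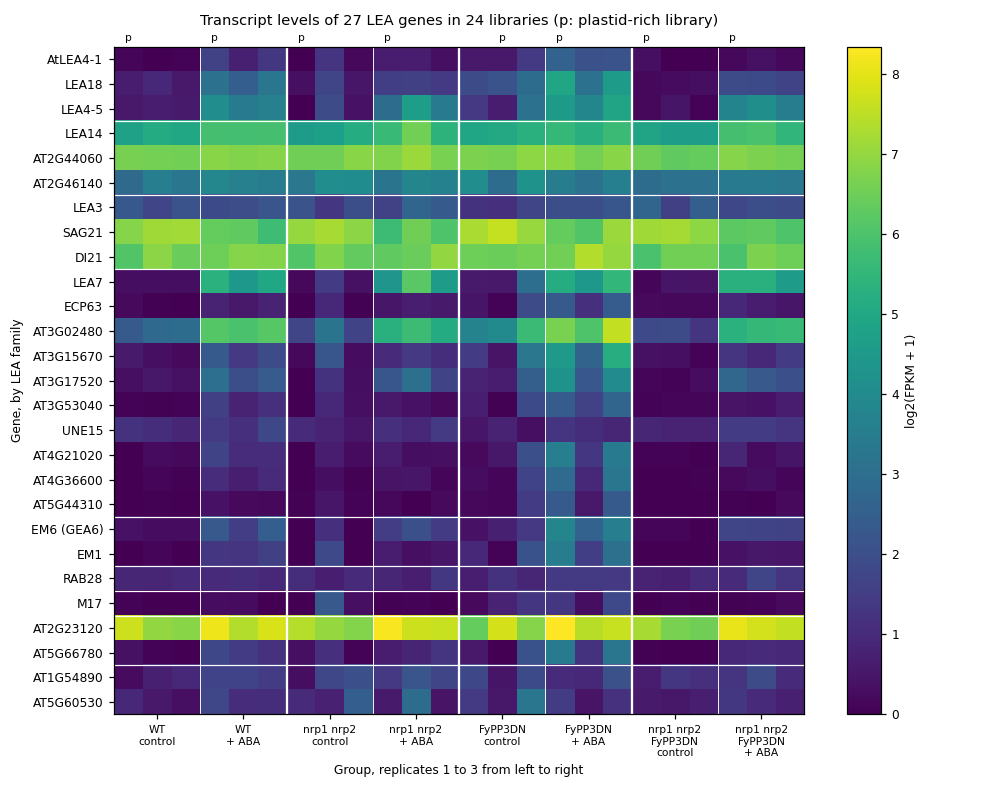
Heat map of log2(FPKM + 1) for the 27 LEA genes that reached 1 FPKM in at least 3 libraries, one row per gene grouped by LEA family and one column per library, with p over the plastid-rich libraries. SAG21, DI21, AT2G44060 and AT2G23120 are high in all 24 columns, while LEA7, LEA4-5, AT3G02480 and EM6 change with ABA.

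ABA raised LEA transcripts in WT seedlings. Of the 27 tested members, 9 were called higher and 1 lower at an adjusted p under 0.05 (limma on log2(FPKM + 1) across all genes, Benjamini-Hochberg), against 4.47% of all 19500 tested genes called higher and 3.24% called lower. The median log2 difference over the 27 was 0.89, beside -0.01 over all genes tested. Among the 14 members that passed the limit in control libraries, 4 were called higher and 1 lower, with a median of 0.65. The 9 were LEA7, AT3G02480, AT3G17520 and AT3G53040 (LEA_4), LEA4-5, LEA18 and AtLEA4-1 (LEA_1), LEA14 (LEA_2) and EM6 (LEA_5), and the member that fell was SAG21 (LEA_3). The WT groups did not overlap, with ABA above control, for 19 of 27 members, beside 11.8% of all tested genes, and with ABA below for 1, beside 10.9%. Over the 14 members, these counts were 8 and 1. Log2 differences on this scale understate the change of genes near 1 FPKM, and in whole seedlings fewer cells of a type and less RNA per cell cannot be told apart.

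In the LEA_4 family, LEA7, a relative of the cotton D-7 seed protein, responded most. Its WT control libraries were at 0.23 FPKM each, and those with ABA at 38.8, 20.6 and 30.6 FPKM. In nrp1 nrp2 the values were 0.13, 1.78 and 0.29 without and 19.5, 72.6 and 23.1 with ABA. In FyPP3DN they were 0.51, 0.47 and 6.99 without and 34.5, 20.8 and 44.7 with ABA. The libraries labelled as the combination were at 0.08, 0.38 and 0.36 without and 38.4, 38.0 and 23.4 with ABA. Every library with ABA was thus above every control library, although FyPP3DN control replicate 3 was well above the other controls. The highest value, in nrp1 nrp2 ABA replicate 2, was in the library with the highest EXPA7 level, whose part in it was not tested. The log2 rises were 4.61 ± 0.53 (SE, adjusted p = 7.07e-06) in WT, 4.38 ± 0.53 (1.56e-05) in nrp1 nrp2, 3.65 ± 0.53 (2.01e-04) in FyPP3DN and 4.72 ± 0.53 (3.73e-06) in the labelled combination. LEA7 overlaps an antisense gene, and since the strand setting of the counting is not given, their reads cannot be told apart.

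AT3G02480, a short LEA_4 gene with a coding length of 207 bases, was already transcribed without ABA. Its control libraries were at 4.18, 6.21 and 6.69 FPKM in WT and 2.37, 8.2 and 2.26 in nrp1 nrp2. In FyPP3DN controls it was at 12.1, 14.7 and 49.8 FPKM, above all other controls, and in those labelled as the combination at 2.59, 2.82 and 1.46. With ABA it reached 69.2, 60.1 and 71.4 FPKM in WT and 37.8, 52.2 and 33.9 in nrp1 nrp2, with no overlap between the groups. It reached 101, 64.3 and 191 FPKM in FyPP3DN and 38.8, 46.1 and 48.3 in the labelled combination. The log2 rise was 3.36 ± 0.44 in WT (adjusted p = 3.06e-05), 3.16 ± 0.44 in nrp1 nrp2 (7.79e-05), 2.31 ± 0.44 in FyPP3DN (0.00234) and 3.81 ± 0.44 in the labelled combination (4.95e-06). The smaller FyPP3DN difference stood on a higher control level, and its difference from WT, -1.05 ± 0.62, did not pass the test (adjusted p = 0.697). The FyPP3DN call was lost with only the 2 groups compared in the fit (adjusted p = 0.111) and on the plastid-poor libraries alone (0.0785).

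AT3G17520 was the third LEA_4 gene that rose in all 4 genotypes. It went from 0.333 ± 0.102 to 4.87 ± 2.21 FPKM (SD, n = 3) in WT, a log2 rise of 2.07 ± 0.50 (adjusted p = 0.0106). The rises were 1.84 ± 0.50 in nrp1 nrp2, 2.19 ± 0.50 in FyPP3DN and 2.21 ± 0.50 in the labelled combination. The calls were less secure than those of LEA7: the WT call was lost without WT ABA replicate 1 (log2 1.79, adjusted p = 0.0688), and the FyPP3DN call without control replicate 1 (1.94, 0.0602) or ABA replicate 1 (1.81, 0.0725). The nrp1 nrp2 call was lost without control replicate 1 (1.59, 0.142) or 3 (1.74, 0.101), and without ABA replicate 1 (1.89, 0.0695) or 2 (1.47, 0.142).

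Transcripts of the LEA_1 family, whose proteins protect enzymes from dehydration in vitro, rose for all 3 of 3 members in WT. LEA4-5 was at 0.5, 0.58 and 0.52 FPKM in WT controls and 16.1, 10.2 and 11.4 with ABA. In nrp1 nrp2 it went from 0, 2.8 and 0.34 to 6.7, 23.7 and 10.1 FPKM, and in FyPP3DN from 1.63, 0.6 and 7.6 to 22.5, 13.3 and 28.5. In the labelled combination it went from 0.12, 0.38 and 0.06 to 12.5, 16.6 and 10.5. Control and ABA libraries did not overlap in any genotype. Its log2 rises were 3.12 ± 0.51, 2.90 ± 0.51, 2.70 ± 0.51 and 3.57 ± 0.51, with adjusted p of 4.08e-04, 0.00102, 0.00239 and 6.58e-05. The FyPP3DN call was lost with only the 2 groups compared (0.0736) and on the plastid-poor libraries alone (0.0663).

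LEA18, also called LEA4-2, varied more between the genotypes. It was at 0.58, 0.91 and 0.5 FPKM in WT controls and 7.79, 4.58 and 8.63 with ABA. In nrp1 nrp2 the libraries were at 0.28, 2.37 and 0.41 and, with ABA, 1.89, 1.96 and 1.65 FPKM, and the groups overlapped because control replicate 2 was high. In FyPP3DN they were at 2.76, 3.41 and 6.67 and 29.9, 7.91 and 23.5, and in the labelled combination at 0.12, 0.18 and 0.25 and 2.71, 2.69 and 2.27 FPKM. It rose by 2.24 ± 0.38 in WT (adjusted p = 5.27e-04), 1.91 ± 0.38 in FyPP3DN (0.00327) and 1.59 ± 0.38 in the labelled combination (0.00756), and its 0.63 ± 0.38 in nrp1 nrp2 did not pass (0.499). AtLEA4-1 rose from 0.0533 ± 0.0503 to 1.43 ± 0.721 FPKM in WT and from 0.883 ± 0.69 to 3.91 ± 1.08 in FyPP3DN, and its differences were 0.09 and 0.13 in the other 2 genotypes. The WT call of AtLEA4-1 was lost without WT control replicate 2 (log2 1.12, adjusted p = 0.0536), ABA replicate 1 (0.96, 0.0924) or ABA replicate 3 (1.11, 0.0557).

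The LEA_5 genes EM6 (named GEA6 in the RefSeq table) and EM1 encode the group of proteins that dry seeds store in quantity, and both are direct targets of ABI5. EM6 was at 0.34, 0.22 and 0.22 FPKM in WT controls and 4.05, 1.87 and 4.64 with ABA. In FyPP3DN it went from 0.32, 0.67 and 1.59 to 12.9, 5.2 and 10.8 FPKM. In nrp1 nrp2 it went from 0, 1.19 and 0 to 1.88, 3.09 and 1.72, and in the labelled combination from 0.1, 0.08 and 0 to 2.32, 2.3 and 2.15. ABA and control libraries did not overlap in any of the 4 genotypes, and the log2 rises were 1.79 ± 0.32 (adjusted p = 9.88e-04), 1.29 ± 0.32 (0.017), 2.49 ± 0.32 (5.07e-05) and 1.62 ± 0.32 (0.00172) in WT, nrp1 nrp2, FyPP3DN and the labelled combination. In nrp1 nrp2 the call was lost without control replicate 1 (1.10, 0.103) or 3 (1.10, 0.0992), or ABA replicate 2 (1.11, 0.0841).

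EM1 was listed at 0 FPKM in 7 of the 24 libraries, among them the 3 controls labelled as the combination. Its WT libraries were at 0, 0.11 and 0 without and 1.5, 1.4 and 1.97 FPKM with ABA. In FyPP3DN they were at 0.94, 0.07 and 3.28 without and 10.2, 1.93 and 7.47 with ABA, and in nrp1 nrp2 at 0, 2.55 and 0 without and 0.54, 0.28 and 0.41 with ABA. In the labelled combination they reached 0.33, 0.45 and 0.42 with ABA. The WT and labelled combination groups did not overlap, whereas those of FyPP3DN and nrp1 nrp2 did because of 1 high control library each. EM1 rose in FyPP3DN by 1.66 ± 0.48 (adjusted p = 0.0425), and its 1.33 ± 0.48 in WT did not pass (0.107).

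**Figure D2:**
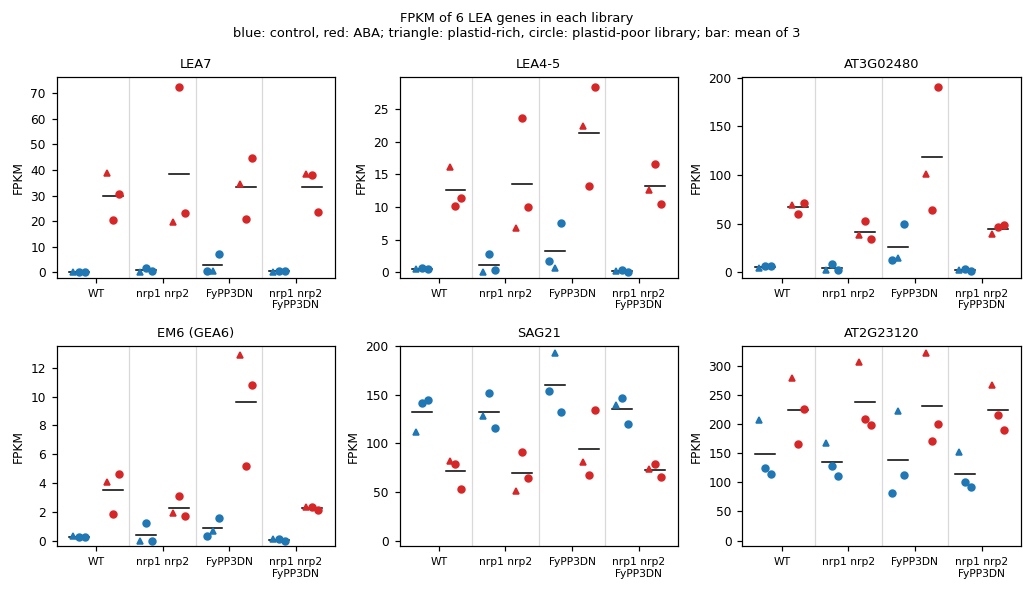
FPKM in each of the 24 libraries for LEA7, LEA4-5, AT3G02480, EM6, SAG21 and AT2G23120, by genotype, blue without and red with ABA, triangles for plastid-rich and circles for plastid-poor libraries, bars for means of 3. LEA7 with ABA lies between 19.5 and 72.6 FPKM and without it at or below 6.99, SAG21 goes the other way, and the triangles of AT2G23120 lie above the circles of the same group.

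LEA_2 genes encode structured, less hydrophilic members of the family, and transcripts of 1 of the 3 rose. LEA14 was at 26.3, 34.2 and 30.8 FPKM in WT controls and 57.4, 55.9 and 57.6 with ABA, and at 23.4, 25.3 and 34.6 and 49.8, 94.0 and 40.7 in nrp1 nrp2. It was at 28.9, 32.0 and 38.5 and 46.4, 36.2 and 50.9 FPKM in FyPP3DN, where the groups overlapped, and at 27.9, 24.6 and 23.9 and 57.5, 60.6 and 43.4 in the labelled combination. It rose by 0.89 ± 0.22 in WT (adjusted p = 0.0141), 1.04 ± 0.22 in nrp1 nrp2 (0.00486) and 1.04 ± 0.22 in the combination as labelled (0.00312), while 0.41 ± 0.22 in FyPP3DN did not pass (0.347). Without WT control replicate 1 the WT call was lost (0.79, 0.0657). AT2G44060 was at 97.2, 94.7 and 94.6 FPKM in WT controls and 115, 107 and 113 with ABA, groups that did not overlap but whose difference of 0.22 ± 0.12 did not pass (0.37). AT2G46140 stayed between 6.37 and 18.3 FPKM, with ABA differences of -0.36 to 0.43 over the 4 genotypes, none of them called.

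SAG21, a LEA_3 gene whose mitochondrial protein is linked to senescence and oxidative stress, was the member that fell. It was at 112, 141 and 145 FPKM in WT controls and 81.7, 78.5 and 53.0 with ABA. In nrp1 nrp2 it was at 128, 152 and 116 and 51.0, 91.4 and 64.6, and in FyPP3DN at 154, 193 and 132 and 80.7, 67.1 and 134. In the labelled combination it was at 139, 146 and 120.0 and 73.8, 78.6 and 65.2. The groups did not overlap in WT, nrp1 nrp2 and the labelled combination, and in FyPP3DN the third ABA library lay within the controls. The log2 differences were -0.90 ± 0.23 (adjusted p = 0.0166), -0.96 ± 0.23 (0.0131), -0.80 ± 0.23 (0.0422) and -0.89 ± 0.23 (0.014) in the order WT, nrp1 nrp2, FyPP3DN and labelled combination, negative in 4 of 4. Single libraries decided these calls. The WT call was lost without control replicate 2 (-0.85, 0.0693) or 3 (-0.84, 0.08) or ABA replicate 3 (-0.71, 0.111), and the nrp1 nrp2 call without control replicate 2 (-0.85, 0.0766) or ABA replicate 1 (-0.76, 0.0978). The FyPP3DN call was lost without control replicate 1 (-0.82, 0.107) or 2 (-0.66, 0.115) or ABA replicate 1 (-0.73, 0.155) or 2 (-0.60, 0.248), and that of the labelled combination without control replicate 2 (-0.83, 0.0622) or ABA replicate 3 (-0.81, 0.0561). SAG21 shares 15.1% of its 50-base stretches with an overlapping gene on the same strand, AT4G04125, so its reads may be split.

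DI21, a drought-induced LEA_3 gene, was at 65.9, 118 and 86.3 FPKM in WT controls and 89.4, 112 and 109 with ABA, and was called in no genotype (log2 differences 0.02 to 0.46 over the 4 genotypes). It was lower in the plastid-rich than in the plastid-poor libraries in 8 of 8 groups, by a median of -0.54 on the log2 scale. LEA3 stayed between 1.25 and 5.64 FPKM and was called in no genotype either. LEA_3 thus held 1 member that fell and none that rose among its 3 tested members.

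AT2G23120, a relative of the bean gene PvLEA18, was the most abundant member. It was at 206, 125 and 114 FPKM in WT controls and 279, 166 and 225 with ABA, and at 168, 127 and 111 and 306, 208 and 198 in nrp1 nrp2. It was at 82.4, 223 and 112 and 323, 171 and 199 FPKM in FyPP3DN, and at 151, 100.1 and 91.6 and 267, 215 and 189.6 in the labelled combination. In each of the 8 groups the plastid-rich library was the highest, by 0.40 to 1.21 on the log2 scale over the plastid-poor ones. Its ABA differences of 0.61 ± 0.33, 0.80 ± 0.33, 0.80 ± 0.33 and 0.98 ± 0.33 were not called (adjusted p = 0.371, 0.211, 0.178 and 0.0571). With library type as a block the same 4 differences had adjusted p of 0.00816, 0.000985, 0.00113 and 6.75e-05, and within the plastid-poor libraries they were 0.70, 0.77, 0.94 and 1.07, all 4 called. With the replicate number as a block, the labelled combination alone was called (adjusted p = 0.0259). The antisense gene AT2G23118 overlaps AT2G23120, and the strand setting is not given.

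AT5G66780, the other PvLEA18 gene tested, was at 0.29, 0.06 and 0 FPKM in WT controls and 2.49, 1.73 and 1.27 with ABA, and at 0.49, 0 and 3.26 and 9.85, 1.35 and 8.69 in FyPP3DN, where it rose by 1.76 ± 0.47 (adjusted p = 0.0294). RAB28, the single SMP gene tested and a relative of maize Rab28, stayed between 0.61 and 2.35 FPKM and was called in no genotype. M17 of the AtM family reached 4.01 FPKM in nrp1 nrp2 control replicate 2, and 2.61 in FyPP3DN ABA replicate 3, and was called nowhere. The LEA-related genes AT1G54890 (0.19 to 3.59 FPKM) and AT5G60530 (0.27 to 8.56 FPKM) were not called either.

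The ABA response was repeated in the other genotypes, each against its own controls. In nrp1 nrp2, 6 of 27 members were called higher and 1 lower, against 3.14% and 2.87% of all genes tested, and the median log2 difference was 0.27 beside -0.05 over all genes. In FyPP3DN, 13 were called higher and 1 lower, against 2.92% and 3.04%, with a median of 1.18 beside 0.03. In the labelled combination, 8 were called higher and 1 lower, against 6.8% and 4.62%, with a median of 0.49 beside 0.04. ABA and control libraries did not overlap, with ABA higher, for 7 members in nrp1 nrp2 (7.82% of all genes), 9 in FyPP3DN (9.14%) and 19 in the combination as labelled (19.3%), and with ABA lower for 1 (9.35%), 0 (7.02%) and 1 (12.3%). LEA7, AT3G02480, AT3G17520, LEA4-5 and EM6 rose in all 4 genotypes, LEA18 and LEA14 in 3, AtLEA4-1 and AT3G53040 in 2, and 6 members in 1 genotype. The other 12 tested members rose in none. With only the 2 groups compared in the fit, LEA7 and EM6 were the 2 members still called in FyPP3DN, and LEA7, AT3G02480 and LEA4-5 the 3 still called in nrp1 nrp2. Among the 14 members that passed the limit in control libraries, 3 were called higher in nrp1 nrp2, 4 in FyPP3DN and 4 in the combination as labelled. The medians over these 14 were 0.34, 0.47 and 0.46, and the groups did not overlap, with ABA higher, for 4, 5 and 9 of them. Without FyPP3DN control replicate 3 and nrp1 nrp2 control replicate 2, the median over the 27 was 0.48 in nrp1 nrp2 and 1.70 in FyPP3DN, and over the 14 it was 0.49 and 0.51.

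Of the 6 members called higher in a single genotype, 5 were called in FyPP3DN. These were AT3G15670, AT4G21020 and AT4G36600 (LEA_4), EM1 (LEA_5) and AT5G66780 (PvLEA18). For all 5, ABA libraries lay above controls without overlap in WT and in the labelled combination, whereas the groups overlapped in FyPP3DN. The response of these 5 in FyPP3DN minus that in WT was not called (adjusted p 0.753 to 0.938). AT3G15670 was at 1.76, 0.35 and 8.97 FPKM in FyPP3DN controls and 21.2, 5.32 and 35.7 with ABA, against 0.52, 0.26 and 0.15 and 4.14, 1.63 and 2.83 in WT. AT4G21020 went from 1.23 ± 1.6 to 7.23 ± 5.02 FPKM and AT4G36600 from 0.823 ± 1.18 to 5.4 ± 3.99 in FyPP3DN. In WT, AT4G21020 went from 0.11 ± 0.0985 to 1.47 ± 0.664 FPKM and AT4G36600 from 0.04 ± 0.04 to 0.91 ± 0.238. The log2 rises in FyPP3DN were 2.37 ± 0.62 for AT3G15670 (adjusted p = 0.0251), 1.82 ± 0.45 for AT4G21020 (0.0177) and 1.70 ± 0.41 for AT4G36600 (0.0156). Within the FyPP3DN group with ABA, replicates 1 and 3 were high and replicate 2 was the closest to WT. Each of the 5 calls was lost when control replicate 1 (adjusted p 0.0897 to 0.133), control replicate 2 (0.0539 to 0.141), ABA replicate 1 (0.0977 to 0.217) or ABA replicate 3 (0.0735 to 0.112) was left out. Without control replicate 3, the library with high seed transcripts, and without nrp1 nrp2 control replicate 2, FyPP3DN had 16 called members in place of 14, beside 4.18% of all genes in the same fit. Over the 22 members that did not pass the limit only through FyPP3DN libraries, 12 were called in this fit. With all libraries, 11 of the 22 were called higher and 1 lower. FyPP3DN had 6 called members without control replicate 1 (3.73% of all genes), 6 without ABA replicate 1 (3.48%) and 8 without ABA replicate 3 (6.83%). UNE15, the sixth, rose in the labelled combination by 0.56 ± 0.18 (adjusted p = 0.0443), and this call was lost without any 1 of the 6 libraries (adjusted p 0.0553 to 0.138).

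AT3G53040, a LEA_4 gene, rose in WT by 1.12 ± 0.34 (adjusted p = 0.0483) and in FyPP3DN by 1.39 ± 0.34 (0.0158). It reached 1 FPKM in 2 libraries outside FyPP3DN and in 1 control library, so it was tested only through libraries in which it was high. It was at 0.0533 ± 0.0208 FPKM in WT controls and 1.33 ± 0.589 with ABA. The WT call was lost without any 1 of the 6 libraries (adjusted p 0.0514 to 0.217), and the FyPP3DN call without control replicate 1 or 2 (0.0722 and 0.0689) or ABA replicate 1 or 3 (0.0735 and 0.0663). The LEA_4 genes ECP63, with 0.63 in WT and 1.16 in FyPP3DN, and AT5G44310, with 0.26 and 1.18, were not called.

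**Figure D3:**
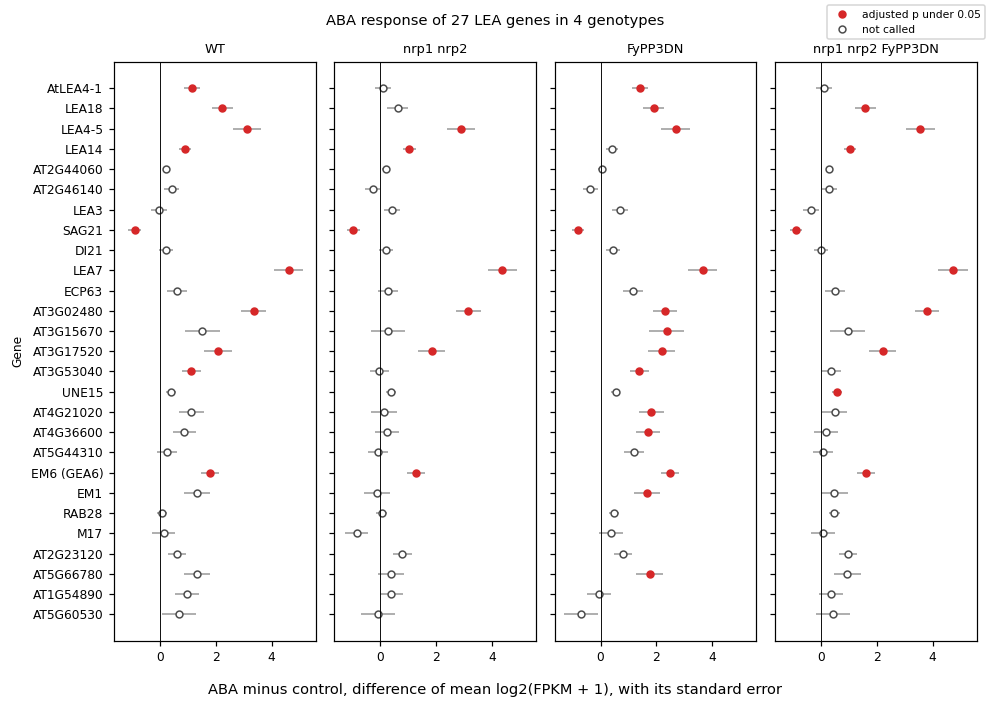
ABA minus control difference of mean log2(FPKM + 1), with its standard error, for the 27 tested LEA genes in each of the 4 genotypes, filled where the adjusted p was under 0.05. LEA7, LEA4-5, AT3G02480, AT3G17520 and EM6 are filled to the right in 4 of 4 panels and SAG21 to the left in 4 of 4, and 13 genes are filled to the right in FyPP3DN.

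The question of whether the genotypes changed the ABA response was tested as a difference of differences, and no member was called. For nrp1 nrp2 minus WT, 0 of 27 were called (limma, 0% of all genes), with 4 at an unadjusted p under 0.05 beside 1.81% of all genes. Those 4 were LEA18 (-1.60 ± 0.53), EM1 (-1.45 ± 0.67), AT3G53040 (-1.15 ± 0.48) and AtLEA4-1 (-1.07 ± 0.41), each with an adjusted p of 1. Without nrp1 nrp2 control replicate 2, the 4 differences were -1.16, -0.84, -0.89 and -0.68. For FyPP3DN minus WT, 0 were called (0.144% of all genes) and 0 reached an unadjusted p under 0.05 (8.13%). Without FyPP3DN control replicate 3 and nrp1 nrp2 control replicate 2, 0 were called in either, and 3 (1.88% of all genes) and 8 (6.24%) reached it. For the labelled combination minus WT, 0 were called (0%) and 1 reached it (1.42%). So the unequal counts of 9, 6, 13 and 8 are not shown to be unequal responses. For LEA7 the difference from WT was -0.23 (95% interval -1.81 to 1.34) in nrp1 nrp2 and -0.96 (-2.53 to 0.61) in FyPP3DN.

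Levels in FyPP3DN were compared with WT under each treatment. Without ABA, 0 of 27 members were called (limma, against 0.579% of all genes), 9 had an unadjusted p under 0.05 (12.7%), and the median difference was 0.74 beside -0.02 over all genes. Without the 5 members that passed the limit only through FyPP3DN libraries, 8 of the other 22 had an unadjusted p under 0.05, and the median over these 22 was 0.74. Without FyPP3DN control replicate 3, the median was 0.28 over the 27 and 0.28 over the 22, beside -0.05 over all genes. LEA18 then differed by 1.3 and AT3G02480 by 1.12. The FyPP3DN controls lay above the WT controls without overlap for 10 of 27 members (6.13% of all genes), and below for 1, UNE15 (8.11%). The 10 were AtLEA4-1, LEA18, LEA4-5, AT2G44060, LEA7, AT3G02480, AT3G17520, AT4G36600, AT5G44310 and M17, and 7 of them are among the 22 that did not owe their place to FyPP3DN libraries. LEA18 (1.60 ± 0.38, adjusted p = 0.0579) and AT3G02480 (1.73 ± 0.44, 0.0894) came nearest, and both were called with library type as a block (0.0304 and 0.0378). The FyPP3DN controls for LEA18 were at 2.76, 3.41 and 6.67 FPKM, against 0.58, 0.91 and 0.5 in WT. Without FyPP3DN control replicate 2, 1 member was called, AT2G46140 (log2 0.94, adjusted p = 0.0469), beside 1.18% of all genes. Without FyPP3DN replicate 3 and nrp1 nrp2 replicate 2, 0 were called, beside 0.385%, and 4 had an unadjusted p under 0.05, beside 12.4%.

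With ABA, 0 of 27 members were called between FyPP3DN and WT (limma, against 0.892% of all genes), 15 had an unadjusted p under 0.05 (11.2%), and the median was 0.69 beside 0.01. Over the 22 members that did not pass only through FyPP3DN libraries, 10 had an unadjusted p under 0.05 and the median was 0.38. FyPP3DN lay above WT without overlap for 8 of 27 members (6.54%), namely AtLEA4-1, ECP63, AT3G15670, AT3G53040, AT5G44310, EM6, RAB28 and M17, and below for 1, LEA14 (8.49%). Of the 8, AtLEA4-1, AT3G15670, EM6 and RAB28 are among those 22. AT5G44310 was at 4.11, 0.48 and 4.14 FPKM in FyPP3DN with ABA against 0.33, 0.17 and 0.14 in WT, and it was tested only because FyPP3DN libraries reached the limit. EM6, at 9.64 ± 3.98 against 3.52 ± 1.46 FPKM, differed by 1.21 ± 0.32 (adjusted p = 0.0919). AT3G15670, at 20.7 ± 15.2 against 2.87 ± 1.26 FPKM, differed by 2.21 ± 0.62 (0.115). The count turned on 1 library. Without FyPP3DN ABA replicate 2, 8 members were called, all higher in FyPP3DN, beside 0.533% of all genes in the same fit, and 5 of the 8 are among those 22. The 8 were LEA18 (1.82, adjusted p = 0.0135), ECP63 (1.67, 0.0367), EM6 (1.56, 0.0315), AT3G15670 (2.94, 0.0315), AT4G21020 (adjusted p = 0.00616), AT4G36600 (2.17, 0.0011), AT5G44310 (2.08, 0.000762) and AT5G66780 (1.88, 0.0385).

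Other seed maturation genes moved in the same libraries. Their list held 14 oleosins, storage proteins and seed factors, of which 6 were tested and 5 stayed below 1 FPKM throughout. Their summed level was 1.25 to 2.90 FPKM in WT controls and 11.4 to 17.5 with ABA. In FyPP3DN controls it was 4.23, 2.74 and 34.1 FPKM in replicates 1, 2 and 3, and with ABA 61.5, 19.9 and 119. In nrp1 nrp2 it was 4.31, 15.5 and 5.33 FPKM without and 2.98 to 5.51 with ABA, and in the labelled combination 1.47 to 2.71 without and 4.16 to 4.49 with ABA. FyPP3DN replicate 3 without ABA and FyPP3DN replicates 1 and 3 with ABA, the libraries most often highest for LEA members, were also the highest of their treatment in this sum. The storage protein gene CRA1, for example, was at 0.25, 0.19 and 18.6 FPKM in FyPP3DN controls and 10.8, 4.29 and 30.02 with ABA, against 0.2, 0.08 and 0.06 and 2.07, 1.06 and 0.52 in WT. HSFA9, a seed-specific factor, was at or below 0.03 FPKM in all libraries and CRU2 at or below 0.32. The part of these genes' levels in the LEA differences was not tested. Of the 6 tested genes, 3 rose with ABA in WT (OLEO2 2.56 ± 0.44, PER1 1.97 ± 0.39 and OLEO1 1.51 ± 0.37), beside 4.47% of all genes tested. In FyPP3DN 3 rose, beside 2.92%. In nrp1 nrp2 and in the combination as labelled 0 rose, beside 3.14% and 6.8%, with 0 at an unadjusted p under 0.05 in these last 2 comparisons (limma). OLEO2, PER1 and OLEO1 reached 1 FPKM in fewer than 3 control libraries, so they were tested only because of libraries with ABA.

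**Figure D4:**
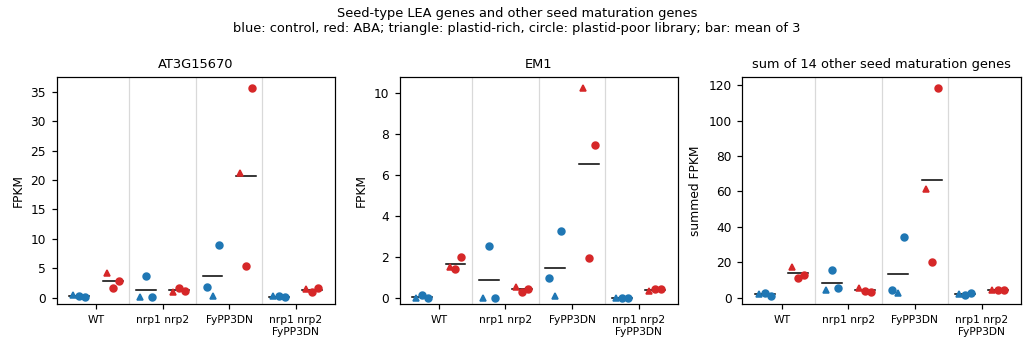
FPKM of the LEA genes AT3G15670 and EM1 and summed FPKM of 14 other seed maturation genes in each library, by genotype, blue without and red with ABA, triangles plastid-rich, bars the mean of 3. FyPP3DN with ABA has 2 high libraries and 1 lower one in each panel, and FyPP3DN control replicate 3 is the highest of the 12 controls in each.

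Levels in nrp1 nrp2 were compared with WT, and 0 of 27 members were called without ABA (limma, 0.0923% of all genes; 1 at an unadjusted p under 0.05, beside 4.18%) or with ABA (0.0667%; 3 at an unadjusted p under 0.05, beside 2.32%). With ABA, nrp1 nrp2 lay below WT without overlap for 8 of 27 members (3.31% of all genes) and above for 0 (1.57%). Without ABA it lay below for 0 (5.15%) and above for 0 (5.27%). The 8 were AtLEA4-1, LEA18, AT3G02480, AT3G15670, AT3G53040, AT4G21020, AT4G36600 and EM1. Of these, LEA18, AT3G02480 and AT3G15670 passed the limit for testing in control libraries. The others passed it only through libraries with ABA, and none of those was from nrp1 nrp2, so their place below WT was partly set by the limit. LEA18 was at 1.89, 1.96 and 1.65 FPKM in nrp1 nrp2 against 7.79, 4.58 and 8.63 in WT, a difference of -1.46 ± 0.38 (adjusted p = 0.588). EM1 was at 0.54, 0.28 and 0.41 against 1.5, 1.4 and 1.97 FPKM (-0.89 ± 0.48, adjusted p = 1). Summed over the other seed maturation genes, the same 3 libraries were also below the 3 of WT.

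The libraries labelled as the combination were compared with WT and with nrp1 nrp2. Against WT, 0 of 27 members were called without ABA (limma, 0.0821% of all genes; 1 at an unadjusted p under 0.05, beside 4.43%) and 0 with ABA (0.0872%; 2, beside 2.8%). With ABA, the combination lay below WT without overlap for 9 of 27 members (3.61%) and above for 0 (4.65%). Of the 9, LEA18, AT2G46140 and AT3G02480 passed the limit for testing in control libraries, and the others only through libraries with ABA. Without ABA the combination lay below WT for 6 (6.59%) and above for 0 (3.3%). LEA18 was at 2.71, 2.69 and 2.27 FPKM there against 7.79, 4.58 and 8.63 in WT (-1.13 ± 0.38, adjusted p = 1). Against nrp1 nrp2, 0 were called without ABA (0.0462%; 1, beside 11.3%) and 0 with ABA (0.0103%; 0, beside 3.3%), and with ABA the differences over the 27 ran from -0.37 to 0.36. Without ABA the combination lay below nrp1 nrp2 without overlap for 5 members (12.5%) and above for 0 (6.51%), and with ABA above for LEA18 (4.86%) and below for 0 (2.05%). The comparisons of nrp1 nrp2 and of the combination with WT share the WT libraries.

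Genes of the same programme outside the set were read alongside. Of the 10 dehydrins, 9 were tested, and 4 rose with ABA in WT, 3 in nrp1 nrp2, 2 in FyPP3DN and 5 in the libraries labelled as the combination, with none lower. Of all genes tested, 4.47%, 3.14%, 2.92% and 6.8% were called higher in the same order, and 3.24%, 2.87%, 3.04% and 4.62% lower. In WT the log2 rises of the dehydrins LTI30, ERD10 and RAB18 were 1.66 ± 0.35, 1.64 ± 0.39 and 2.71 ± 0.64 (adjusted p = 0.00439, 0.0104 and 0.01). Both COR15 genes, which encode LEA proteins of the chloroplast, rose in all 4 genotypes, COR15A by 5.70 ± 0.33 in WT and 4.39 ± 0.33 in FyPP3DN. COR15A and COR15B together were at 126 to 164 FPKM in WT with ABA and 42.3 to 115 in FyPP3DN, so there the FyPP3DN libraries were not above WT. Of 17 regulators, 10 were tested. Beside the same shares of all genes, 3 regulators rose in WT, 4 in nrp1 nrp2, 2 in FyPP3DN and 4 in the labelled combination. These included the ABRE-binding factors ABF1 (0.59 ± 0.12 in WT) and ABF3 (0.83 ± 0.18), which rose in all 4 genotypes, and ABI5 (0.47 ± 0.12), which went from 1.07, 1.5 and 1.85 to 2.43, 2.26 and 2.47 FPKM in WT and from 2.46, 2.08 and 2.62 to 2.77, 3.26 and 2.97 in FyPP3DN. The seed regulator ABI3 stayed at or below 0.77 FPKM, its highest values, 0.54 and 0.77, being those of FyPP3DN ABA replicates 1 and 3, and LEC1, LEC2 and FUS3 stayed at or below 0.68 FPKM.

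The upstream windows held what the choice of members did not use. An ABRE core (ACGTG on either strand) was present in the 300 bases before the gene start of 29 of the 41 members (70.7%), beside 25.6% of 27443 protein-coding genes. At least 2 separate ABRE cores were present in 22 members (53.7%), beside 5.86%. Among the 15 members called higher with ABA in at least 1 genotype, 14 held 2 or more, and among the 12 tested members never called higher, 2 did. Of the 15, only LEA18, LEA4-5, LEA14, AT3G02480 and AT3G15670 passed the limit for testing in control libraries, and each held 2 or more. The 2 never called higher, ECP63 and AT5G44310, passed it only through libraries with ABA. Of the 14 members not tested, 6 held 2 or more. For comparison, 43.1% of the 860 genes called higher with ABA in WT that had a window held at least 1 core and 15.6% at least 2, and for the 623 genes called lower the shares were 27.4% and 5.14%. UNE15 was the member called higher with none in its window. LEA4-5, whose window is not printed, held 3. The DRE core CCGAC, the site of the cold and drought factors of the DREB family, was present in 17 of 41 members (41.5%, beside 13.9% of genes). The RY motif CATGCA, bound by the seed factors ABI3 and FUS3, was present in 7 (17.1%, beside 10.3%). A DRE core was held by 11 of the 15 members called higher and by 4 of the 12 never called higher. For the RY motif these counts were 4 and 1. These matches describe letters in a window and show no binding.

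**Figure D5:**
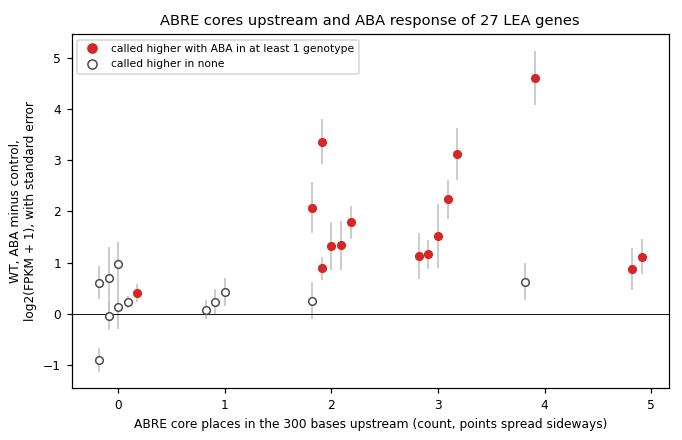
Number of separate ABRE cores in the 300 bases upstream of each of the 27 tested LEA genes, against the WT ABA minus control difference of log2(FPKM + 1) with its standard error, filled for genes called higher with ABA in at least 1 genotype. 14 of the 15 filled points have 2 or more cores, and LEA7, with the largest difference, has 4.

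Several members are neighbours in the genome. AT2G23110 and AT2G23120 lie 475 bases apart on chromosome 2 and on the same strand, and AT2G23110 reached 1.59 FPKM where AT2G23120 reached 323. M17 and M10 lie 1998 bases apart, also on chromosome 2, AT3G22490 and ATECP31 781 bases apart on chromosome 3, and AT5G53260 and AT5G53270 596 bases apart on chromosome 5. The last 2 share sequence, so reads from them could be split, but both were at or near 0.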

How the data were processed

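FPKM values were deposited by the authors in 1 file for each of 24 libraries, 3 in each of 8 groups, with 32833 genes. The submitters' processing notes list Trimmomatic 0.30, HISAT2 2.0.1 and the TAIR10 build, with no role or order. The read counter, its annotation and its strand setting are stated in none of the sources used here. Both poly(A) enrichment and Ribo-Zero appear in the labels' protocols, not assigned to libraries. FPKM steps in genes with exons under 400 bases gave the depth, 16560000 to 29110000 fragments, with 99.6% to 100% of the values tested within 0.1 of a whole fragment.

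Deposited values entered as log2(FPKM + 1), for 19500 genes with at least 1 FPKM in at least 3 libraries. Differences were tested in limma 3.58.1 (R 4.3.3) with 1 mean for each of the 8 groups over all 24 libraries, empirical Bayes with trend, two-sided, and Benjamini-Hochberg adjustment over all genes tested within each of 15 comparisons. Members and lists were chosen with earlier results of these data known. Per-library values are given for up to 2 members of each family with the smallest adjusted p in the WT response to ABA. Further library values, such as those of AT3G15670 and AT5G44310, were picked after seeing them. Symbols, positions and sequences are from RefSeq TAIR10.1 (41 of 41 members matched). Upstream windows were searched for motifs in Python 3.11.15.

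Residuals of libraries with the same replicate number correlated above 0.1 for all 3 numbers in 5 of 12 comparisons between pairs of groups (0.241 to 0.659). Among them were the ABA responses of WT and of the labelled combination. The main fit paired no libraries in any comparison, and replicate number entered only as a block in an alternative fit. In these 5 comparisons, replicate 1 was the plastid-rich library of both groups. The correlations therefore cannot tell a pairing from a shared library type. Alternatives were other pseudocounts, filters, scalings and samples in the fit, blocks for library type or replicate number, the plastid-poor libraries alone, and each library left out.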

Additional observations from a re-analysis of the deposited data

How the results depend on the processing

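Each of the 40 called member responses was recomputed under every alternative. Of 620 recomputed values, 505 kept direction and side of the threshold, 115 kept direction only and 0 reversed. The 14 calls that were never lost were those of LEA7 in 4 genotypes, of AT3G02480 and LEA4-5 in all but FyPP3DN, of EM6 in all but nrp1 nrp2, and of LEA18 in WT. Counts of called members moved as follows, with the share of all genes called in the same fit in brackets. With only the 2 groups compared in the fit, WT went from 10 (7.7%) to 16 (6.3%), nrp1 nrp2 from 7 (6.02%) to 3 (2.64%), FyPP3DN from 14 (5.95%) to 2 (1.21%) and the labelled combination from 9 (11.4%) to 12 (11.7%). On plastid-poor libraries alone, with 2 libraries a group, nrp1 nrp2 gave 4 (3.47%), FyPP3DN 4 (4.23%) and the labelled combination 5 (6.32%). A pseudocount of 0.1 gave 9 (5.91%) in FyPP3DN and 14 (7.56%) in WT, and the library type block 18 (10%) in FyPP3DN. FyPP3DN against WT went from 0 to 2 (2.35%) without ABA with the library type block and to 1 (0.574%) with a pseudocount of 0.1, and with ABA to 1 (1.86%) with the library type block and to 1 (0.718%), AT3G22490, with no filter on low values. The first 2 settings held fewer samples in the fit, and the cause of these moves was not tested. With each library left out in turn, the range was 7 to 9 in WT, 5 to 7 in nrp1 nrp2, 6 to 16 in FyPP3DN and 7 to 9 in the labelled combination, and in FyPP3DN against WT 0 to 1 without ABA and 0 to 8 with ABA; the other 9 comparisons stayed at 0.

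With the replicate block, the ABA responses with correlated replicate numbers gave 10 in WT and 10 in the labelled combination. The block added AT2G23120 in the latter and changed no other call in either. Replicate number and library type coincide except in the FyPP3DN controls, where replicate 2 is the plastid-rich one. There same-numbered libraries correlated negatively with WT for replicates 1 and 2 (-0.40 and -0.43), and whether these 2 numbers are exchanged was not tested. In comparisons without correlated replicate numbers, the block gave 7 in nrp1 nrp2, 15 in FyPP3DN and 1 in FyPP3DN against WT with ABA (AT5G44310). An alternative chosen after seeing the data left out FyPP3DN replicate 3 and nrp1 nrp2 replicate 2. It gave 6 in nrp1 nrp2 and 16 in FyPP3DN, of which 12 did not pass the limit only through FyPP3DN libraries. At the median depth, 1 fragment of a transcript the length of EM6 is 0.0720 FPKM, so differences between members below about 1 FPKM rest on few fragments.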
